A study of Solanum lycopersicum with 6 samples.

Results

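The comparison set the pin-shaped shoot tip of tomato (Solanum lycopersicum) seedlings sprayed with 1 mM TIBA (triiodobenzoic acid) against the wild-type (WT) shoot apex. It rests on 4 of the 6 RNA sequencing libraries of the series, TIBA replicates 1 and 2 and WT replicates 1 and 2, all from greenhouse-grown seedlings that were fixed in acetone and dissected. WT apices were dissected with their 2 youngest leaf primordia attached to the meristem, and TIBA pins as meristem only, according to the labels. The other 2 libraries came from the meristem of the leafless (lfs) mutant, also taken without primordia, and serve here as the second leafless apex. The labels name no cultivar, no mock-sprayed WT and no pooling scheme. Nothing in them says that the repeats came from separate plants, so the spread behind each p-value may be that of the library preparation alone.

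TIBA blocks the polar transport of auxin, the plant hormone whose local maxima mark where leaves and flowers form on the flank of the shoot meristem. When that transport is blocked, the meristem goes on making stem but few or no lateral organs, which gives a bare pin. A pin therefore lets the meristem be sampled without the organs it normally surrounds itself with, and a WT apex dissected with primordia is a mixture of meristem and young leaf.

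Genes are described here by what was measured and not by name. The deposited table identifies genes only by number, and 0 of its 34722 identifiers were found in the RefSeq gene table of the assembly SLM_r2.1. The genes of auxin transport and response, leaf initiation and flowering could therefore not be picked out, and neither could markers of meristem, primordium or any other cell type, so the labelled tissue was not checked against its markers. Values are the authors' normalized counts, in which each library's reads per gene are divided by 1 size factor. They are not corrected for gene length, so levels are compared between libraries and not between genes.

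Of 19807 genes with a normalized count of at least 10 in at least 2 libraries, 13144 (66.4%) had both TIBA libraries on the same side of both WT libraries. Both TIBA values were the higher in 6763 genes (34.1%) and the lower in 6381 genes (32.2%). This count is a description, since 2 libraries against 2 cannot reach a p under 0.05 in an exact test. With so few libraries many genes would be separated without any difference between the groups. The share is therefore not the share of genes that differ. Many of these separations were small. The lowest value of the higher group exceeded the highest value of the lower group by a median of 1.24-fold, and by less than 1.09-fold in the genes below the lower quartile. In 1846 genes the groups were apart by no more than 5%, and in 1796 further genes they overlapped by less than 5%, so the edge of the set runs through a dense part of the data. A gap of at least 1.5 times was left in 3781 genes, 2254 of them higher and 1527 lower in the pin, and a gap of at least 2 times in 2011, 1353 higher and 658 lower.

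The limma test called 3681 genes (18.6%) at a Benjamini-Hochberg adjusted p under 0.05, of which 2142 rose (10.8%) and 1539 fell (7.77%) in the TIBA pin. The test pooled the spread of each gene over the 3 groups, of which TIBA varied most. A fit of only the 4 WT and TIBA libraries called 3042 genes. None of the 3681 called genes had overlapping libraries, and 28.0% of the genes with separated libraries were called. Among called genes, those that rose changed by more than those that fell. The rising genes also had lower median counts in WT, and the part of count level in this difference was not tested. The median increase was 2.70-fold, with quartiles of 1.81 and 5.90, and the median decrease was 2.04-fold, with quartiles of 1.68 and 3.17. At least a 2-fold change was seen in 1440 genes that rose (7.27%) and 809 that fell (4.08%), at least an 8-fold change in 391 and 142, and at least a 32-fold change in 72 and 25. The number called was 661 without WT replicate 1 (521 rose and 140 fell), 717 without WT replicate 2 (589 and 128), 6555 without TIBA replicate 1 (3235 and 3320), and 2560 without TIBA replicate 2 (1426 and 1134). The 2-fold classes held 521 and 140 genes without WT replicate 1, 588 and 128 without WT replicate 2, and 1730 falling genes without TIBA replicate 1. The 8-fold classes held 225 and 40 genes without WT replicate 1, 257 and 46 without WT replicate 2, and 240 falling genes without TIBA replicate 1. The excess of rising genes, 58.2% of all calls, was thus 49.4% when TIBA replicate 1 was left out and lay between 55.0% and 82.1% in every other alternative tried. A group left with 1 library added nothing to the pooled spread, so the counts with a library left out rest on the spread of the other groups. Only the WT samples held primordia. The effect of TIBA and the loss of primordium tissue from the sample cannot be told apart in this comparison, and in bulk RNA neither can fewer cells of a type and less RNA per cell.

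**Figure D1:**
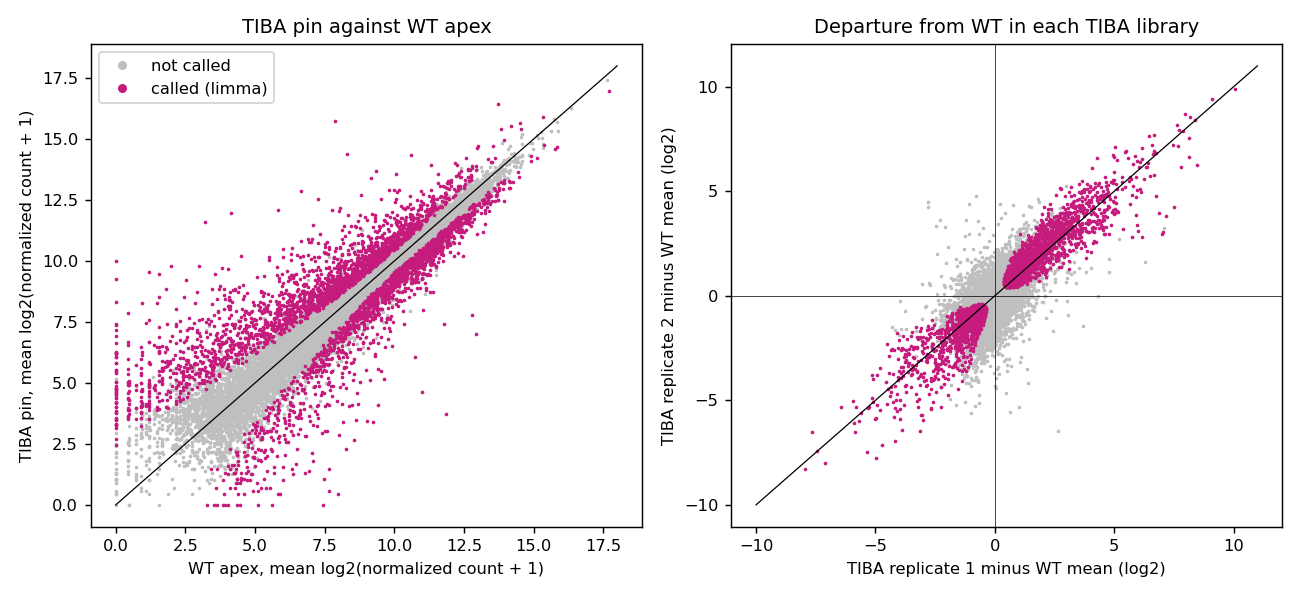
Left, the mean log2(normalized count + 1) of each of the 19807 tested genes in the WT apex (x axis) and the TIBA pin (y axis), with the 3681 genes called by limma in colour and the line of equal levels. Right, the log2 departure of TIBA replicate 1 (x axis) and TIBA replicate 2 (y axis) from the WT mean for the same genes; called genes lie in the quadrants where both libraries departed in the same direction.

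The direction of the calls differed along the range of counts per gene, which grow with gene length as well as with expression. Among genes with a mean normalized count from 30 to 100 over the 6 libraries, 12.6% rose and 5.88% fell, and from 100 to 300 the shares were 12.1% and 5.89%. Among genes over 3000 the order was turned, with 10.8% that rose and 12.9% that fell, and from 1000 to 3000 the shares were 9.64% and 11.2%. These shares were not tested against each other. In WT replicates 1 and 2 the median normalized count of the genes that fell was 962.4 and 1002, and in TIBA replicates 1 and 2 it was 523.7 and 460.8. Genes that rose had medians of 188.1 and 194.1 in WT and of 485.6 and 556.6 in TIBA.

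The called genes made up a limited part of the RNA counted. Those that rose took 6.35% and 6.48% of the normalized counts in WT replicates 1 and 2, and 14.5% and 15.9% in TIBA replicates 1 and 2. Those that fell took 15.5% of each WT library, 9.06% of TIBA replicate 1 and 7.89% of TIBA replicate 2. The uncalled genes held between 76.2% and 78.2% in all 4. The genes that rose at least 8-fold accounted for 0.0700% and 0.0716% of the WT counts and for 1.40% and 1.53% of the TIBA counts, and those that fell at least 8-fold for 0.246% and 0.218% of the WT counts and 0.0165% and 0.00795% of the TIBA counts. These genes were chosen on the same libraries, so the shares describe the size of the change and do not test it. The sets shrink when a WT library is left out: the genes that rose then took 3.99% to 4.64% of TIBA replicate 1, without WT replicate 1 and without WT replicate 2 in that order, and the genes that fell 1.09% and 0.896% of WT replicate 1. Without TIBA replicate 1 the genes that fell took 26.5% of WT replicate 1 and 18.9% of TIBA replicate 1. Without TIBA replicate 2 the genes that rose took 4.17% of WT replicate 1 and those that fell 5.70% of TIBA replicate 1. With DESeq2 the falling genes took 14.0% of TIBA replicate 1 and 12.4% of TIBA replicate 2.

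**Figure D2:**
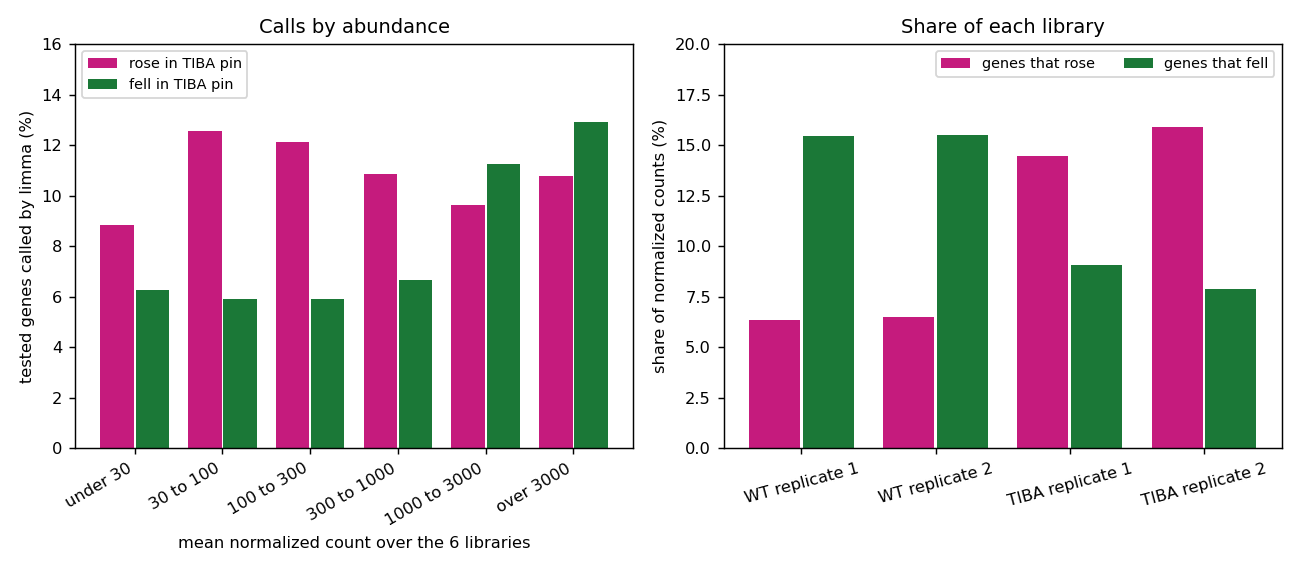
Left, the percentage of tested genes that rose or fell in the TIBA pin (limma) in 6 ranges of mean normalized count; rising genes outnumber falling ones up to 1000 and the order is turned above it. Right, the percentage of each library's normalized counts held by the 2142 genes that rose and the 1539 that fell; rising genes go from 6.35% and 6.48% in WT to 14.5% and 15.9% in TIBA pins.

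A small group of genes was absent or near absent in 1 of the groups and present in both libraries of the other. No read was found in either WT library for 41 genes (0.207% of those tested) that stood at 10 or more in both TIBA libraries, and 5 of these reached 100 in both. The limit of 10 is that of the filter and stands for few reads, since 1 read was worth 0.83 in TIBA replicate 1 and 1.20 in TIBA replicate 2. In the other direction, 9 genes (0.0454%) had no read in either TIBA library and at least 10 in both WT libraries, and 1 of these reached 100 in both. With a looser limit, 33 genes were under 10 in both WT libraries and at least 100 in both TIBA libraries, with medians of 247.4 and 208.3 in TIBA replicates 1 and 2. The reverse pattern, under 10 in both TIBA libraries and at least 100 in both WT libraries, was found in 14 genes, with medians of 190.8 and 162.0 in WT replicates 1 and 2. All 47 genes of these patterns were called by limma, as their choice makes likely. In the lfs apex the 33 genes had medians of 125.6 and 28.5, and the 14 genes had medians of 4.56 and 4.88.

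Among genes called with at least 5 CPM (reads scaled to an equal library total) on average, those with the largest fitted increase had no read in WT. Solyc06g060640.1, on chromosome 6 by its identifier, stood at a normalized count of 0 in both WT libraries, 1081 and 958.8 in TIBA replicates 1 and 2, and 71.9 and 15.4 in lfs replicates 1 and 2. The TIBA libraries were close to each other and far above both lfs libraries, which in turn lay above WT. Against 3 reads in each WT library, the level in the pin was at least 385-fold higher (limma adjusted p = 0.00049), and the direct difference between the pin and lfs was 4.88 on the log2 scale (SE 0.67, limma adjusted p = 0.012). Solyc04g082910.1, on chromosome 4, was likewise at 0 in both WT libraries and at 546.0 and 693.0 in the TIBA libraries, at least 234-fold higher (limma adjusted p = 5.3e-05). Its lfs values of 422.4 and 470.0 lay below both TIBA values by less than the test could call (log2 difference of the pin from lfs 0.46, SE 0.30, limma adjusted p = 0.40). The bounds cover counting error only. Both genes were chosen by the size of their change in these same libraries, so their p-values against WT describe that change and do not test it. Their differences from lfs use the same TIBA values.

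Under the same limit of 5 CPM, which leaves out less abundant genes with decreases larger than the second of these, the largest fitted decreases were those of Solyc08g079100.2 and Solyc03g111820.2. Solyc08g079100.2, on chromosome 8, stood at a normalized count of 3740 and 3608 in the WT libraries, 14.1 and 10.8 in the TIBA libraries and 3.04 and 9.76 in the lfs libraries. All 4 libraries without primordia were under 15 while both WT libraries were over 3000, a log2 change of -8.11 from WT to the pin (SE 0.48, limma adjusted p = 0.00039). Solyc03g111820.2, on chromosome 3, stood at 2293 and 1835 in WT, 64.5 and 8.38 in TIBA and 6.08 and 0.813 in lfs. The groups did not overlap, but the TIBA libraries were far apart from each other. Its log2 change was -6.37 (SE 0.95, limma adjusted p = 0.0067), -7.77 without TIBA replicate 1 and -4.97 when TIBA replicate 2 was left out, and without WT replicate 1 it was no longer called (log2 -6.21, limma adjusted p = 0.055). Neither gene was called between the pin and lfs (log2 differences of 1.01, SE 0.48, and 2.79, SE 0.95, limma adjusted p = 0.25 and 0.15). These genes too were chosen by the size of their change in these libraries, so their p-values against WT do not test it.

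**Figure D3:**
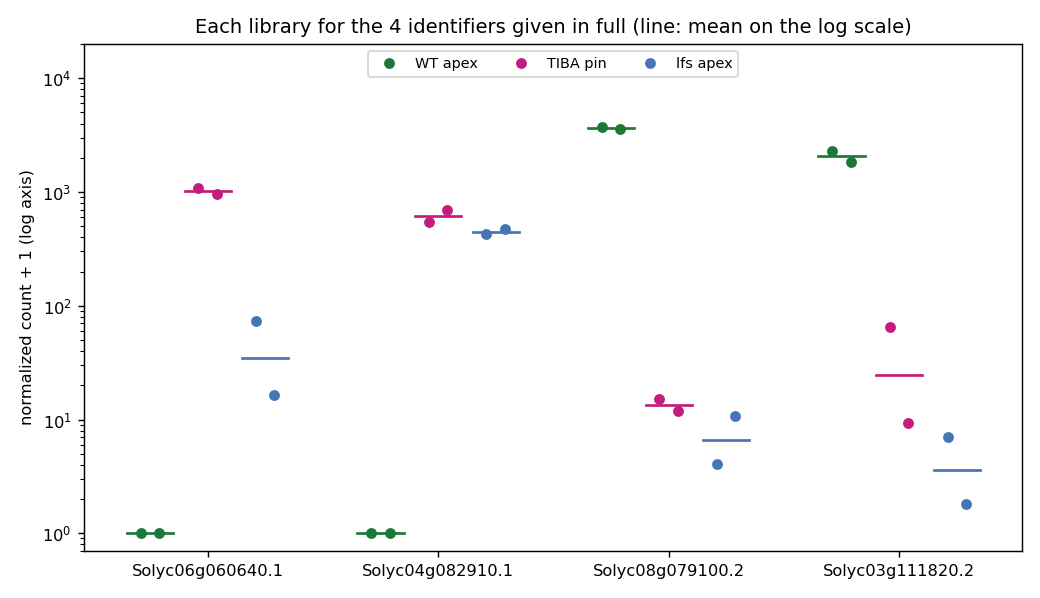
Normalized count + 1 on a log axis in each library for the 4 identifiers given in full, with the WT apex, TIBA pin and lfs apex side by side; points are libraries and lines their mean on the log scale. The first pair is at 0 in both WT libraries, and the last pair is highest in both WT libraries, at 1835 or more, and at 64.5 or less in all others.

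The TIBA libraries varied more than those of the other groups. For the median gene, the SD of the TIBA replicates was 0.23 log2 units, that of the lfs replicates 0.16 and that of the WT replicates 0.092 (n = 2 each). The replicates stood at least 2-fold apart in 2292 genes in TIBA, in 1451 in lfs and in 545 in WT. TIBA replicate 1 was the higher in 1233 of the 2292 genes and TIBA replicate 2 in 1059. TIBA replicate 2 was also the shallowest library, with 17640302 reads assigned to genes, against 25774076 in TIBA replicate 1 and 19914834 to 26054787 in the others. The part of depth in this spread was not tested.

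TIBA replicate 2 departed farther from WT. Its median absolute departure from the WT mean over all tested genes was 0.50 log2 units, against 0.34 for TIBA replicate 1, and it was at least 2-fold away in 4843 genes, against 3192. In 1006 genes TIBA replicate 2 was at least 2-fold above the WT mean while replicate 1 was within 2-fold of it, and in 304 genes the order was the opposite. Below the WT mean the corresponding counts were 1341 and 392. Both libraries were at least 2-fold above in 1655 genes and at least 2-fold below in 796. In 45 genes they were at least 2-fold away on opposite sides. Among the called genes TIBA replicate 2 was the farther in 68.9%, with a share of 69.5% among those that rose and 68.0% among those that fell. These shares lie near the background, since it was the farther in 67.0% of all genes with separated libraries (68.5% of the higher and 65.4% of the lower ones) and in 64.7% of all tested genes. The median change of the rising genes was 2.50-fold in TIBA replicate 1 and 2.93-fold in replicate 2, and that of the falling genes 1.91-fold and 2.18-fold. The TIBA libraries were at least 2-fold apart in 10.2% of the called genes and in 11.6% of all tested genes.

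Called genes lay on every chromosome. Read from the identifiers, which carry the chromosome by convention, the share of tested genes called ran from 16.1% on chromosome 10 to 21.1% on chromosome 7. Rising calls outnumbered falling calls on each of the 12 chromosomes, making up between 52.8% of the calls on chromosome 11 and 63.5% on chromosome 12. Among all genes with separated libraries the order was turned on chromosome 11, with 388 higher and 485 lower, and on chromosome 9, with 467 and 472. Without TIBA replicate 1, falling calls were the more numerous on 8 of the 12 chromosomes, and they were so on 1 chromosome without TIBA replicate 2 and on 1 with a weight per group. The 128 tested genes whose identifiers place them on no chromosome had 5 that rose and 10 that fell.

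Neighbours in identifier order were compared for their calls, as a description with no test. Of 2136 rising genes with a tested gene after them on the chromosome, 364 were followed by another that rose, while 10.9% of all tested genes were followed by one that rose. Of the genes that fell, 11.4% were followed by another that fell, against 7.75% of all tested genes. Runs of 3 or more neighbouring tested genes that all rose numbered 59 and held 208 genes, and the longest held 9 genes on chromosome 10. Runs of falling genes numbered 18 and held 61 genes, and the longest held 6 genes on chromosome 4. In all, 2142 genes rose and 1539 fell. The number of runs that such shares of calls would give without any clustering was not computed. Runs were counted only with all libraries in the fit. How reads with several matches were counted is not stated in the labels, so neighbours that are near-identical copies could share reads, and how many of these runs are such copies was not tested. Without WT replicate 1 and without WT replicate 2 the share was 6.35% and 7.65% for rising genes, against 2.64% and 2.99% of all tested genes. For falling genes a single gene was followed by another in each case, of 138 and 128, which is too few to compare. Without TIBA replicate 1 the shares were 20.7% against 16.4% and 20.6% against 16.8%.

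**Figure D4:**
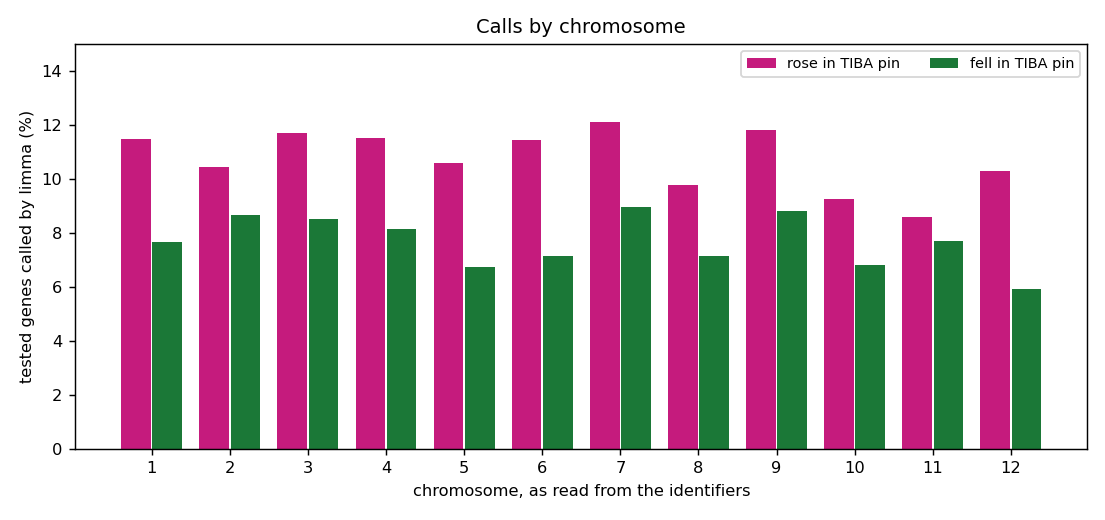
Percentage of tested genes that rose or fell in the TIBA pin (limma) on each of the 12 chromosomes, as read from the identifiers. The share called in all runs from 16.1% on chromosome 10 to 21.1% on chromosome 7. The share that rose is the larger on each chromosome with all libraries in the fit, and the smaller on 8 of the 12 without TIBA replicate 1.

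The lfs apex, which also lacked primordia, gives the closest comparison for the pin. Both leafless groups were set against the same WT libraries, so their changes from WT are not independent, and the difference between them was tested directly. That test called 912 of the 19807 genes (4.6%), with 522 higher (2.64%) and 390 lower (1.97%) in the TIBA pin than in lfs (limma, adjusted p under 0.05). The number was 369 with only the 4 lfs and TIBA libraries in the fit. Leaving out WT replicate 1 gave 373 genes and leaving out WT replicate 2 gave 368. The fit that lacked lfs replicate 1 called 438, the one that lacked lfs replicate 2 called 105, and the one that lacked TIBA replicate 1 called 2777. Genes not called between the pin and lfs are not shown to be alike in them.

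The authors' deposited table gave a similar number of calls for the pin against WT, out of a larger set of genes. At an adjusted p under 0.05 the authors' deposited table held 3686 genes, 2146 higher and 1540 lower in the pin, of 25845 with an adjusted p-value. Of these, 3224 were also called here by limma, which is 87.5% of the authors' calls and 87.6% of the limma calls, and 0 of the shared genes differed in direction. Both sets of calls come from the same libraries. The authors' calls were not limited to the 19807 genes tested here, and a call outside these could not be shared.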

How the data were processed

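RNA was extracted with an RNeasy kit and made into TruSeq libraries, per the labels' protocols. Reads were processed with TopHat2 (2.0.10), HTSeq (0.6.1p1) and DESeq2 (1.6.3), which the submitters' processing notes list. Build, annotation and settings are not given in the sources used. The deposited table holds DESeq2-normalized counts, a signal per gene and library, beside the authors' own log2 changes and their raw and adjusted p-values, per the file headers. Dividing by the value of 1 read gave a whole number, to within 0.001, for 208332 of 208332 values (100%), and these reads served the count-based alternatives. Library totals lay between 17640302 and 26054787 reads.

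The main test, chosen for normalized values, was limma (3.58.1, R 4.3.3, with trend and robust moderation) on log2(normalized count + 1). All 6 libraries were fitted as 3 groups, which leaves 3 residual degrees of freedom, and p-values were adjusted over all 19807 tested genes. The log2(value + 1) scale understates the change of low genes. Alternatives used edgeR (4.0.16), DESeq2 (1.42.0), limma voom, other pseudocounts, filters and scalings, a weight per group, a replicate block and each library left out. The fit was also run on simulated counts with known changes. All groups were simulated with the same spread, so that run cannot speak to the larger spread of the TIBA libraries.

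The comparison and its rules were chosen with earlier results of these data known. Identifiers given in full are those with the 2 largest increases and the 2 largest decreases on the log2 scale, required to be called, to average at least 5 CPM and to have groups that do not overlap. Lists of auxin, leaf, meristem and flowering genes had been drawn up from memory of published work. They are not reported, because neither the deposited table nor the reference table pairs identifiers with names. No sequence is shown for the same reason.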

Additional observations from a re-analysis of the deposited data

How the results depend on the processing

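The count of called genes (3681) ran from 661 to 6555 when 1 library was left out, that of rising genes (2142) from 521 to 3235, that of falling genes (1539) from 128 to 3320, and that of genes called between the pin and lfs (912) from 105 to 2777. The cause was not tested; a group left with 1 library is assumed to vary like the others. The last count was 474 with the replicate block, and 369 in a fit without the WT libraries. With all libraries, the count against WT lay between 2743 (replicate block, 1644 rising and 1099 falling) and 4560 (DESeq2), with 3475 by edgeR. A gap of 1.5 times between groups left 3781 of the 13144 separated genes, 2254 higher and 1527 lower. No called gene was called in the opposite direction in any of the 18 alternatives. Leaving out 1 library could not have turned a direction, because every called gene had separated libraries. Of the 3681 genes, 1858 (50.5%) were called in all 12 alternatives that did not leave a single library out. In all 18, 408 were called (333 rising, 75 falling). The 12 include a fit of only the 4 WT and TIBA libraries, which kept 2855 of the calls. Genes that a filter removed count as not called, and with a mean of at least 5 CPM only 2869 of the 3681 were tested. The number that rose at least 8-fold (391) was 227 with a pseudocount of 5 and 152 with a mean of at least 5 CPM, and the number that fell (142) was 70 and 32. The number that rose at least 2-fold (1440) was 910 with that CPM minimum and the number that fell (809) 502. Labels give no shared batch for equal replicate numbers, and deviations of same-numbered libraries correlated by -0.051 between WT and TIBA and -0.14 between lfs and TIBA, so the samples were not treated as paired. Alternatives for size classes, count shares and neighbours were added after the data were seen. With 2 libraries per group and the spread of the TIBA libraries, small differences could go uncalled. The smallest difference that could be detected was not computed.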
